A study of Mus musculus with 6 samples.

Results

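The genes described here are the receptors for glucocorticoids and mineralocorticoids, the enzyme that activates glucocorticoids inside cells, and 7 genes that glucocorticoids are known to induce. They were chosen by name (Nr3c1, Nr3c2, Hsd11b1, Fkbp5, Tsc22d3, Dusp1, Zbtb16, Klf9, Sgk1 and Errfi1), and the 10 names matched 10 of the 57010 genes in the deposited count table, each in 1 row. All 10 passed the filter on low counts that left 14799 genes for testing. The libraries came from neonatal mouse cardiomyocytes (NMCMs), a primary culture from the hearts of C57BL/6 mice aged 1 to 3 days. The HO + Vehicle group was kept under hypoxia (HO) with vehicle (V1 to V3). The HO + β-SITO group was kept under hypoxia with β-sitosterol (β-SITO), a plant sterol (T4 to T6). Hypoxia is shared by both groups, and no normoxic library was analysed here. The concentration of β-SITO in these libraries and the time of exposure are not given in the sources used here, and no glucocorticoid is named among the treatments. Cardiomyocytes were separated from fibroblasts by their slower adhesion and were kept in medium with fetal bovine serum. Nothing in the labels says that the 3 libraries of a group came from separate cultures, so p-values measure the spread between these libraries, which may be technical. The library names of the HO + β-SITO group alone carry a suffix C, whose meaning the labels do not give, so whatever it marks cannot be told apart from the treatment.

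Glucocorticoids cross the cell membrane and bind the glucocorticoid receptor, which waits in the cytoplasm in a complex with the chaperone HSP90 and its cochaperones. The bound receptor moves to the nucleus, where it raises transcription of some genes by binding DNA as a dimer and lowers the expression of many inflammatory genes. In heart cells the mineralocorticoid receptor binds the same hormones, because the enzyme that inactivates them in kidney is scarce there.

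The DNA element bound by a receptor dimer is an inverted repeat, the half-site AGAACA followed by 3 bases of any kind and by TGTTCT, and each half-site reads AGAACA or TGTTCT depending on the strand. RefSeq promoter sequences of build GRCm38.p6 were found for 8 of the 10 genes, all but Nr3c1 and Zbtb16, and were searched on both strands. Each holds 300 bases, just before and after an annotated start site. Sequence further away was not searched, so a gene without a match here may still hold an element elsewhere. The full repeat was found in 3 of the 32851 promoters of all genes (0.00913%), and 1 of these 3 belongs to Sgk1, a gene with 6 annotated promoters. A half-site was found in the promoters of Sgk1 and Tsc22d3 (2 of 8 genes), against 21.3% of all genes and 19% of all promoters. The shorter core ACANNNTGT, which lies within the full repeat, was found in 1 of the 8 genes, again Sgk1. It was found in 7.9% of all genes and 6.85% of all promoters. The promoters of Nr3c2, Hsd11b1, Fkbp5, Dusp1, Klf9 and Errfi1 held no match of any kind searched for. Tsc22d3 has 3 annotated promoters. A gene with several promoters has more chances of a match, so the shares per gene do not compare like with like. The stretches around the full repeat of Sgk1 and the half-site of Tsc22d3 are shown because they hold the elements searched for, with the matching bases in capitals. The Sgk1 stretch is chr10:21993678-21993738 on the plus strand and its match begins at base -189 from the start site. The Tsc22d3 stretch is chrX:140600674-140600734 on the minus strand and its match begins at base -185. A match describes these letters only, and receptor binding was not measured.
Sgk1: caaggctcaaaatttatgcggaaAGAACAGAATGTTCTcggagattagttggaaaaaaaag
Tsc22d3: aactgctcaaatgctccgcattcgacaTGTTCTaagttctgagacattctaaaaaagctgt

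Libraries held between 16694734 and 18460522 counts. Levels are in CPM, counts relative to the library's size, with sizes corrected for composition by the TMM method. Cardiomyocyte markers were present, with 15 of 15 tested and a summed level of 7149 to 8183 CPM under vehicle and of 6273 to 10739 CPM under β-SITO. Fibroblast markers, also 10 of 10 tested, summed to more, with 30061 to 31350 CPM against 44735 to 45831 CPM. Macrophage markers summed to 1357 to 1488 CPM against 2838 to 3485 CPM, with 7 of 11 more than 2-fold higher and 2 lower. Endothelial markers did not separate as a sum (1208 to 1345 CPM against 1283 to 1307 CPM), although 8 of 10 were more than 2-fold higher, and Flt1 was lower (532.1 ± 48.4 against 103.6 ± 8.85 CPM, SD, n = 3). Mural and smooth muscle markers summed to 1132 to 1230 CPM against 1964 to 2241 CPM. Mesothelial markers summed to 53.3 to 58.9 CPM against 87.3 to 107.6 CPM. Lymphocyte and neutrophil markers were near 0, with a sum of at most 1.49 CPM in any library and no count of Cd3e or Ly6g. In these bulk libraries a change in the number of cells of a type and a change in RNA per cell cannot be told apart, and the part of these shifts in the results below was not tested.

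Between the groups the 2 receptors moved in opposite directions, and so did the induced genes. Nr3c1, Fkbp5 and Errfi1 fell, whereas Nr3c2, Hsd11b1, Tsc22d3, Dusp1, Zbtb16, Klf9 and Sgk1 rose (edgeR's quasi-likelihood test, adjusted p under 0.05 over all tested genes). These were 10 of 10 genes, against 66.8% of all tested genes, with 3 lower (33.8% of all tested genes) and 7 higher (33% of all tested genes). With a change of more than 2-fold added, which defines differentially expressed genes (DEGs) here, 4 of the 10 were called, against 22.8% of all tested genes. Fkbp5 was the only DEG among them that was lower, where 10.1% of all tested genes were lower, and Klf9, Dusp1 and Zbtb16 were higher, where 12.8% were higher. The median log2 fold change of the 10 genes was 0.73, against -0.01 for all tested genes. No library of one group overlapped the other group for any of the 10 genes, and this was also the case for 70.5% of all tested genes.

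**Figure D1:**
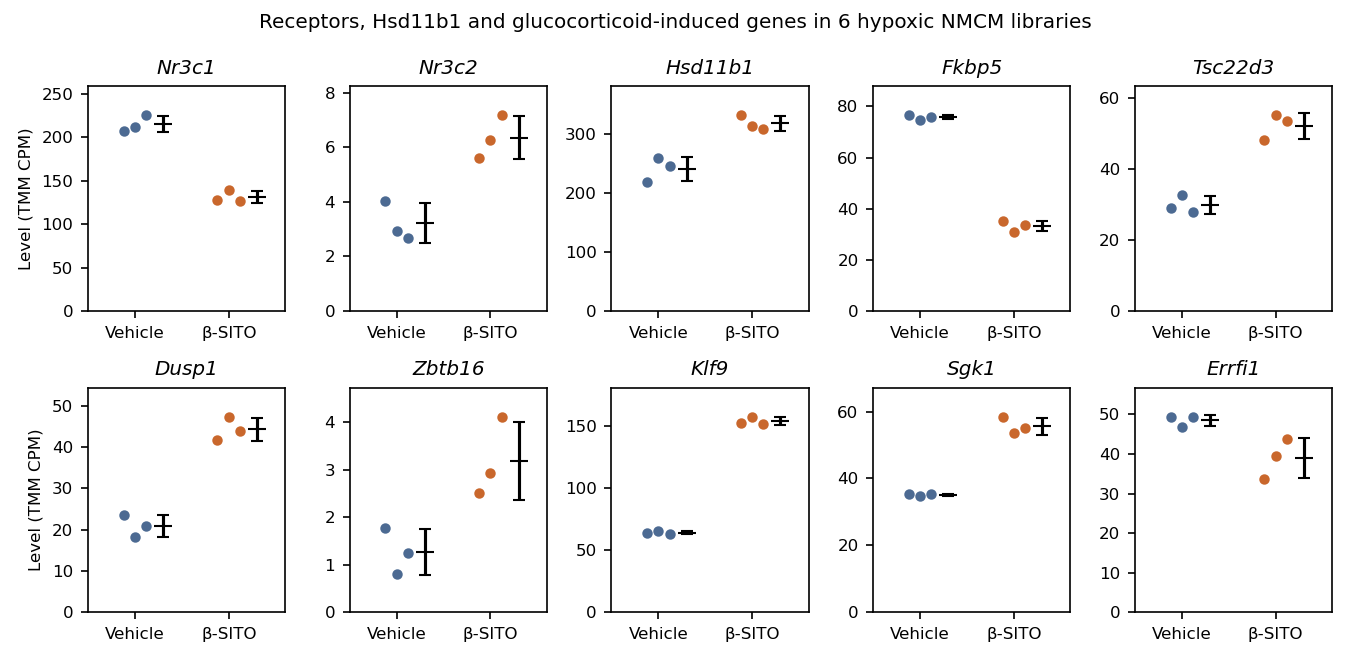
Level of each of the 10 genes in TMM CPM (vertical axis from 0, one panel per gene) in the 3 HO + Vehicle and 3 HO + β-SITO libraries, with points for libraries and a bar for the mean ± SD. Nr3c1, Fkbp5 and Errfi1 lie lower in every HO + β-SITO library and the other 7 genes lie higher.

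**Figure D2:**
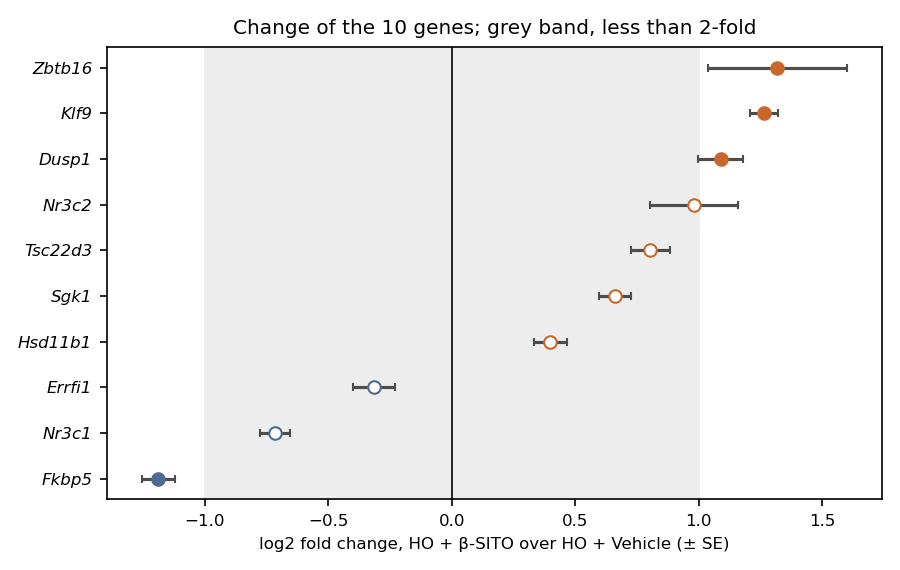
Log2 fold change of HO + β-SITO over HO + Vehicle (horizontal axis) for the 10 genes, with bars for the SE of the fit, filled points for DEGs and open points for the other genes. Values run from -1.19 for Fkbp5 to 1.32 for Zbtb16, and 6 genes lie within the grey band of less than 2-fold.

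Nr3c1 encodes the glucocorticoid receptor. It had 207.7, 212.6 and 225.5 CPM in V1 to V3 and 127.8, 139.1 and 126.6 CPM in T4 to T6. The highest HO + β-SITO library thus lay well below the lowest HO + Vehicle library. The mean fell from 215.3 ± 9.18 to 131.2 ± 6.91 CPM (SD, n = 3) or by -0.71 on the log2 scale (SE 0.06, adjusted p = 5.06e-08), which is less than 2-fold. Leaving out single libraries gave -0.73 to -0.66.

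Nr3c2 encodes the mineralocorticoid receptor, which binds aldosterone and also glucocorticoids with high affinity. Its levels were low, at 4.04, 2.94 and 2.66 CPM in V1 to V3 and 5.60, 6.29 and 7.18 CPM in T4 to T6, from 43 to 138 counts per library. All 3 HO + β-SITO libraries lay above V1, the highest of the HO + Vehicle libraries. The log2 fold change was 0.98 (SE 0.18, adjusted p = 1.70e-04), just under 2-fold, and leaving out V1 put it at 1.20. Leaving out T4 or T5, library size only, upper quartile normalization or a higher count minimum also put Nr3c2 past 2-fold, so that call depended on the processing while the direction did not.

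Because the receptors can share hormones and targets, their balance was computed within each library as the log2 ratio of their levels per kb of exon. In the HO + Vehicle libraries the ratio of Nr3c1 to Nr3c2 was 43.3, 60.9 and 71.4 in V1 to V3. In the HO + β-SITO libraries it was 19.3, 18.6 and 14.9 in T4 to T6. On the log2 scale the balance was 5.84 ± 0.37 against 4.13 ± 0.20 (SD, n = 3), a difference of -1.71, and the groups did not overlap (two-sided exact permutation test, p = 0.1, the smallest that 3 libraries against 3 allow). Nr3c1 was lower and Nr3c2 higher in every HO + β-SITO library, so the separation and this p-value were fixed by those results. They add no evidence of their own, and the ratio is given as a description. Nr3c1 transcripts remained the more abundant of the pair in every library.

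**Figure D3:**
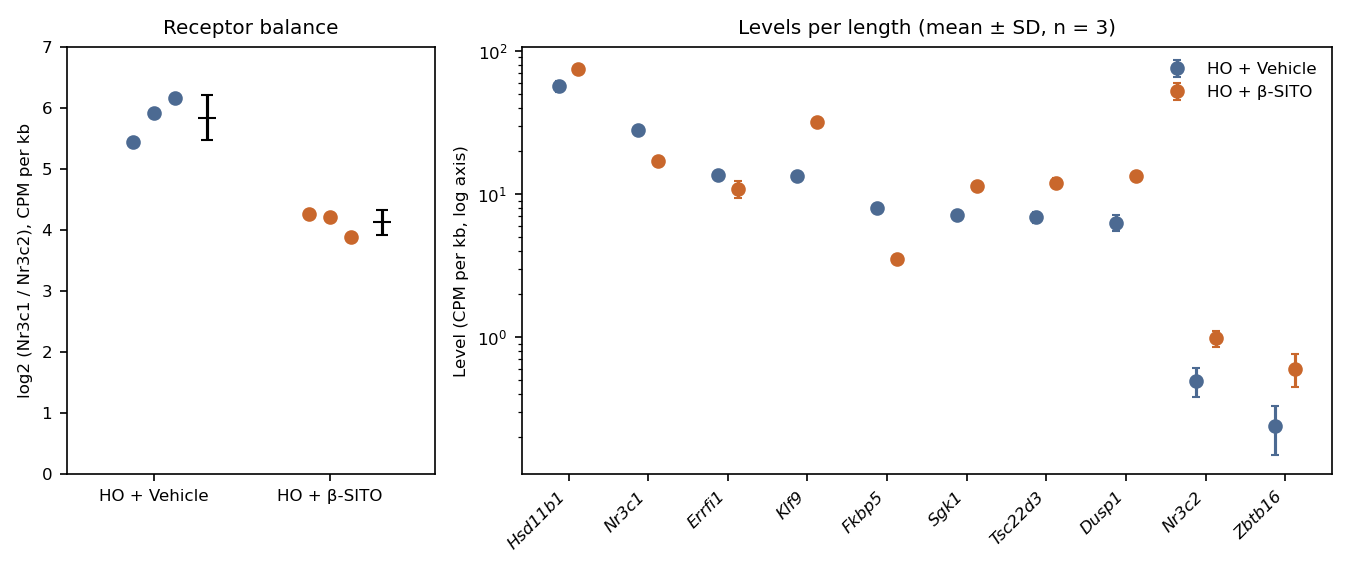
Left, log2 ratio of Nr3c1 to Nr3c2 in CPM per kb of exon for each library, with the mean ± SD of each group of 3. Right, mean level ± SD of the 10 genes in CPM per kb on a log axis, ordered by the HO + Vehicle group. The log2 ratio is 5.44 to 6.16 under vehicle and 3.89 to 4.27 under β-SITO.

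Hsd11b1 encodes 11β-hydroxysteroid dehydrogenase type 1, which converts inert 11-keto steroids into active glucocorticoids in the endoplasmic reticulum. It had 218.4, 258.9 and 246.2 CPM in V1 to V3 and 331.9, 314.3 and 308.1 CPM in T4 to T6. Every HO + β-SITO library was higher, and the log2 fold change was 0.40 (SE 0.07, adjusted p = 8.62e-05). Per length it was the most abundant of the 10 genes in both groups and lay at the percentile 95.1 of all tested genes. The rise was 1.32-fold, beside summed fibroblast markers of 30061 to 31350 CPM under vehicle and 44735 to 45831 CPM under β-SITO. That sum consisted mostly of the collagen transcripts Col1a1, Col1a2 and Col3a1. No fibroblast marker was a DEG, and of the 10, 7 rose while Dcn and Postn fell (log2 fold changes -0.52 and -0.22, adjusted p = 7.99e-06 and 0.0116). The sums of macrophage, of mural and smooth muscle, and of mesothelial markers were also higher in every HO + β-SITO library. Those of cardiomyocyte and endothelial markers overlapped between the groups, but single markers of both types moved. Of the cardiomyocyte markers, 3 of 15 were higher DEGs and 0 were lower DEGs. By less than 2-fold, Tnnt2 and Pln fell, and Myh6 and Ttn rose. The part of any cell type in the Hsd11b1 result was not tested.

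The reductase activity of this enzyme needs NADPH made in the same compartment by hexose-6-phosphate dehydrogenase, encoded by H6pd. H6pd moved the other way, with 456.4, 429.1 and 415.7 CPM in V1 to V3 and 176.1, 165.6 and 177.5 CPM in T4 to T6. Its mean fell from 433.8 ± 20.7 to 173.1 ± 6.49 CPM (SD, n = 3), or -1.33 as a log2 fold change (SE 0.06, adjusted p = 2.65e-11). The ratio of Hsd11b1 to H6pd in CPM, chosen after these values were seen and so given without a test, was 0.478 to 0.603 under vehicle and 1.74 to 1.90 under β-SITO. Hsd11b2, the enzyme of the opposite reaction in mineralocorticoid target tissues, had 1 or 2 counts in each HO + Vehicle library and 2, 5 and 4 in T4 to T6, too few for a test.

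Fkbp5 encodes FKBP51, an HSP90 cochaperone that lowers the receptor's affinity for hormone and whose own induction by glucocorticoids forms a feedback loop. It is located at chr17:28618068-28736501 on the minus strand (GRCm39, the build in the submitters' processing notes). It had 76.5, 74.8 and 76.0 CPM in V1 to V3 and 35.2, 31.0 and 33.5 CPM in T4 to T6. The libraries of each group were close to each other, and the groups were far apart. The log2 fold change was -1.19 (SE 0.07, adjusted p = 3.09e-10), a 2.28-fold fall, and it was -1.23 to -1.04 across all 15 alternatives. Among all tested genes 8.46% fell by more.

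Tsc22d3 encodes GILZ, a leucine zipper protein that restrains NF-κB and AP-1. It had 29.0, 32.6 and 27.9 CPM in V1 to V3 and 48.0, 55.0 and 53.3 CPM in T4 to T6. The log2 fold change was 0.80 (SE 0.08, adjusted p = 2.90e-07), so that Tsc22d3 rose 1.75-fold while Fkbp5, another classic target, fell. Across the alternatives it was 0.78 to 0.95 and never reached 2-fold.

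Dusp1 encodes MKP-1, a phosphatase that switches off the MAP kinases p38 and JNK, and is also an immediate early gene of stress. It had 23.5, 18.2 and 20.9 CPM in V1 to V3 and 41.8, 47.3 and 43.9 CPM in T4 to T6. Each HO + β-SITO library lay above all HO + Vehicle libraries, and the log2 fold change was 1.09 (SE 0.09, adjusted p = 4.21e-08). Tested against a change of 2-fold itself with edgeR's glmTreat it did not pass (adjusted p = 0.317). Its span in the table, chr17:26724564-26781102 on the minus strand, overlaps Ergic1 on the opposite strand, which had 140.5 ± 7.30 against 154.7 ± 2.37 CPM (SD, n = 3). The strand setting of the counting is not given in the sources used here, so reads of the overlap cannot be assigned with certainty.

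The 2 induced transcription factors, Klf9 and Zbtb16, both rose more than 2-fold. Klf9 encodes a Krüppel-like factor that is induced by glucocorticoids and also follows the circadian clock. It is located at chr19:23118590-23145498 on the plus strand. It had 64.1, 65.2 and 62.6 CPM in V1 to V3 and 152.5, 157.1 and 151.1 CPM in T4 to T6, with a spread of about 2% in each group (coefficients of variation 2.08% and 2.05%). The log2 fold change was 1.26 (SE 0.06, adjusted p = 2.09e-11). Of the 3 higher DEGs it was the only one that passed glmTreat.

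Zbtb16 encodes PLZF, a zinc finger repressor that responds strongly to glucocorticoids in many tissues. It is located at chr9:48565597-48747522 on the minus strand. It was scarce, with 28, 13 and 20 counts in V1 to V3 and 49, 52 and 79 counts in T4 to T6, which came to 1.77, 0.814 and 1.24 CPM against 2.52, 2.92 and 4.11 CPM. T6 was the highest and V2 the lowest, and the spread was the widest of the 10 genes (coefficients of variation 37.5% and 26.0%). The log2 fold change was 1.32 (SE 0.28, adjusted p = 6.87e-04), and 1.08 to 1.65 with each library left out in turn. It did not pass glmTreat (adjusted p = 0.249).

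Sgk1 encodes a kinase, induced by both receptors, that acts on sodium channels and on FOXO factors. A promoter of this gene holds the full repeat shown above, and the gene spans chr10:21758083-21875802 on the plus strand in GRCm39. It had 35.5, 34.8 and 35.2 CPM in V1 to V3 and 58.4, 53.5 and 55.0 CPM in T4 to T6. The HO + Vehicle libraries were within 1 CPM of each other, and the log2 fold change was 0.66 (SE 0.07, adjusted p = 2.95e-07), under 2-fold.

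Errfi1 encodes MIG6, a feedback inhibitor of the EGF receptor that glucocorticoids can induce. It had 49.2, 46.7 and 49.3 CPM in V1 to V3 and 33.6, 39.5 and 43.8 CPM in T4 to T6. The HO + β-SITO libraries were lower and more widely spread, and T4, the lowest, was also the library of that group with the lowest sum of cardiomyocyte markers (6273 CPM, against 10594 in T5 and 10739 in T6). The log2 fold change was -0.31 (SE 0.09, adjusted p = 0.00469), and it did not pass with library size only (-0.17, adjusted p = 0.0983) or upper quartile normalization (-0.17, adjusted p = 0.0899). T4 also had the highest macrophage and mesothelial sums of its group and the lowest mural and smooth muscle sum. Its fibroblast and endothelial sums lay between those of T5 and T6. T4 was also the lowest of its group for Nr3c2, Tsc22d3, Dusp1 and Zbtb16, but the highest for Hsd11b1, Fkbp5 and Sgk1. Whether the share of RNA from any cell type has a part in these values was not tested.

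Levels of different genes were compared per kb of exon. In the HO + Vehicle group the order was Hsd11b1 (56.7 ± 4.88 CPM per kb), Nr3c1 (28.0 ± 1.20), Errfi1, Klf9, Fkbp5, Sgk1, Tsc22d3, Dusp1, Nr3c2 (0.497 ± 0.112) and Zbtb16 (0.241 ± 0.0903; SD, n = 3 each). Errfi1 and Klf9 overlapped in this group, as did Sgk1 with Tsc22d3 and Tsc22d3 with Dusp1. In the HO + β-SITO group Klf9 stood above Nr3c1 (31.9 ± 0.653 against 17.1 ± 0.899 CPM per kb; SD, n = 3 each) and Fkbp5 stood below Sgk1, Tsc22d3 and Dusp1, which it had exceeded under vehicle, with 3.51 ± 0.221 CPM per kb (SD, n = 3). Dusp1, Tsc22d3, Sgk1 and Errfi1, in this order, each overlapped the next. Hsd11b1 was the highest and Zbtb16 the lowest in both groups.

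The receptor's chaperone complex and coregulators were described by a list of 25 genes, all tested. Of these, 10 fell and 7 rose, where 33.8% of all tested genes fell and 33% rose, and 2 were DEGs, both lower (8% called, against 22.8% of all tested genes), and the median log2 fold change was -0.12. The 2 DEGs were chaperone genes. Stip1, encoding the HOP protein that hands receptors from HSP70 to HSP90, fell from 412.2 ± 8.29 to 138.3 ± 2.88 CPM (SD, n = 3, log2 fold change -1.58, adjusted p = 1.18e-12). Hsp90aa1, the inducible HSP90, fell from 458.4 ± 50.1 to 209.4 ± 11.96 CPM (SD, n = 3, log2 fold change -1.13, adjusted p = 3.88e-09). The constitutive Hsp90ab1 fell less, with -0.68 on the log2 scale (adjusted p = 5.33e-08). Fkbp4, whose product FKBP52 competes with FKBP51 for the receptor complex and favours hormone binding, had 88.4 ± 3.43 against 101.4 ± 4.97 CPM (SD, n = 3), or 0.20 as a log2 fold change (adjusted p = 0.00969) beside -1.19 for Fkbp5. Of the coactivators, Ncoa1 rose by 0.45 on the log2 scale (adjusted p = 1.05e-04), and Ncoa2, at 0.10 on the same scale, did not pass (adjusted p = 0.313).

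Genes of steroid metabolism and transport were listed as 27, of which 16 were tested. The other 11, among them the genes for the adrenal enzymes of corticosteroid synthesis, had at most 5 counts in any library. Of the 16, 6 were DEGs that were lower and 1 was higher (43.8% called, against 22.8% of all tested genes), and the median log2 fold change was -0.24. Earlier results of these data were known when the list was written, so this share is a description. Tspo, a mitochondrial membrane protein linked to cholesterol handling, fell from 366.1 ± 37.9 to 78.5 ± 0.523 CPM (SD, n = 3), or -2.22 as a log2 fold change (adjusted p = 5.08e-13). Abcb1b, a P-glycoprotein that exports steroids among many substrates, fell from 37.0 ± 2.57 to 9.77 ± 1.29 CPM (SD, n = 3, log2 fold change -1.92, adjusted p = 1.27e-10). Hsd17b12, which acts in fatty acid elongation, changed by -1.38 on the log2 scale (adjusted p = 9.41e-12). The single higher DEG, named after its value was seen, was Akr1c14, a 3α-hydroxysteroid dehydrogenase, at 2.85 ± 1.09 against 8.11 ± 0.816 CPM (SD, n = 3, log2 fold change 1.51, adjusted p = 1.19e-05).

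A further 56 genes known to be induced by glucocorticoids in one tissue or another were listed, and 52 were tested. They did not move one way. Of the 52, 14 were DEGs that were lower and 8 were higher (42.3% called, against 22.8% of all tested genes), and the median log2 fold change was -0.13. This list too was written with earlier results of these data known, so its share of DEGs is a description. Among the largest falls were Lcn2, which encodes lipocalin 2 (499.7 ± 27.3 to 1.38 ± 0.276 CPM, SD, n = 3, log2 fold change -8.49, adjusted p = 2.36e-17), Angptl4 (-3.21, adjusted p = 4.04e-14) and Nfkbia, which encodes the inhibitor IκBα (-2.78, adjusted p = 6.53e-15). Lcn2 and Nfkbia are also well known targets of NF-κB, and Angptl4 of hypoxia and PPAR signaling. Cebpd, which also responds to inflammation, fell from 63.0 ± 1.84 to 25.3 ± 2.04 CPM (SD, n = 3, log2 fold change -1.32, adjusted p = 2.96e-10). Ddit4, an inhibitor of mTORC1, fell by 0.59 on the log2 scale (adjusted p = 7.76e-07).

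Among the higher genes of this list were Cdkn1c, the cell cycle inhibitor p57 (2.02 ± 0.382 to 12.6 ± 1.66 CPM, SD, n = 3, log2 fold change 2.63, adjusted p = 1.41e-09), and Sesn1, a stress-induced inhibitor of mTORC1 (17.9 ± 0.801 to 68.8 ± 2.62 CPM, SD, n = 3, log2 fold change 1.94, adjusted p = 1.80e-12). Rgs2, a brake on G protein signaling, changed by 1.61 on the log2 scale (adjusted p = 2.26e-08). Per1, a clock gene induced directly by the receptor, rose from 24.4 ± 3.11 to 38.2 ± 2.34 CPM (SD, n = 3, log2 fold change 0.64, adjusted p = 1.60e-05), and Klf15, a cardiac metabolic regulator, rose by 0.40 (adjusted p = 0.00525), both under 2-fold. Per1 and Klf15 had changes of the same sign as Klf9, Tsc22d3 and Sgk1, and Cebpd and Ddit4 of the same sign as Fkbp5. Every gene that rose or fell shares its sign with some of these, so the signs are a description only.

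**Figure D4:**
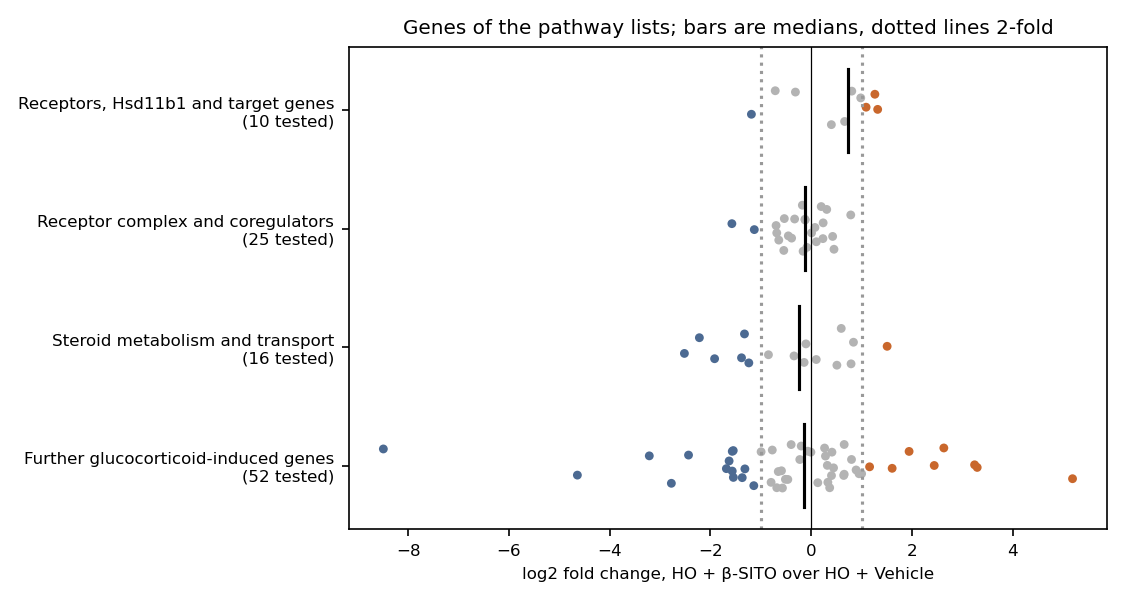
Log2 fold change of HO + β-SITO over HO + Vehicle (horizontal axis) for the tested genes of each list, with orange points for DEGs that were higher, blue points for DEGs that were lower, grey points for the rest and a bar for the median. The 10 genes have a median of 0.73, and the lists of the receptor complex, of steroid metabolism and of further induced genes have medians of -0.12, -0.24 and -0.13.

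Of 25 inflammatory genes that glucocorticoids are known to repress, all 25 were tested, 24 were DEGs that were lower (against 10.1% of all tested genes) and none was higher, and their median on the log2 scale was -6.37. They ranged among DEGs from Ccl5, a chemokine (log2 fold change -12.16, adjusted p = 1.24e-17), to Nfkb2, an NF-κB subunit (-2.60, adjusted p = 1.04e-14). The same genes respond to NF-κB and interferons, and these lower levels were known when the list was written, so they are given as a description.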

How the data were processed

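RNA-seq libraries of hypoxic NMCMs, 3 per group, were sequenced by the authors as 150 bp paired-end reads. The authors deposited raw read counts per gene, whole numbers without normalization. The submitters' processing notes list FastQC, HISAT2, featureCounts and build GRCm39, with no versions. Counting options and strand setting are not given in the sources used here. Groups came from the sample labels.

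From the counts, filterByExpr, TMM and the quasi-likelihood test of edgeR 4.0.16 (R 4.3.3) were run with group as the only term. Benjamini-Hochberg adjustment covered all 14799 tested genes. The code was also run on simulated counts with few changed genes and a constant dispersion. These data differ in both, so that run does not test the error rate here. DEGs changed more than 2-fold at an adjusted p under 0.05, the threshold of the study, which used DESeq2. "Rose" and "fell" need the adjusted p only. SEs were derived from the fitted coefficient and the F statistic. Exon lengths came from GENCODE vM21 by gene identifier. Its gene models may differ from those used for counting, so levels per kb and their order and percentiles are approximate. Alternatives were DESeq2 1.42.0, limma-voom (limma 3.58.1), glmTreat, other normalizations and filters, removal of mitochondrially encoded genes and removal of each library. The biological coefficient of variation was 6.52%. No column of values was left unused.

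The genes and lists were chosen with earlier results of these data known, so their shares of DEGs beside those of all tested genes are descriptions. Genes named from lists were a fixed set (Hsd11b2, H6pd, Fkbp4, Hsp90ab1, Ncoa1, Ncoa2, Per1, Cebpd, Ddit4, Klf15) plus, per list, up to 3 DEGs with the largest increase and 3 with the largest decrease, limited to genes averaging 100 counts or more whose groups did not overlap. For the inflammatory list they were the extremes among DEGs. Akr1c14, Ergic1 and the marker genes named are outside this rule and were named after their values were seen.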

Additional observations from a re-analysis of the deposited data

How the results depend on the processing

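None of the 10 genes changed direction under any alternative it could be fitted with (15, or 14 for Zbtb16, which a minimum mean of 50 counts removed). The count of lower DEGs among them was 1 throughout. The count of higher DEGs was 3 to 4, except with glmTreat, where it was 1, since a test against 2-fold itself asks for more than a fold limit after the test. Apart from glmTreat, all fitted genes passed the adjusted p except Errfi1 with library size only and upper quartile normalization. With library size only the median log2 fold change of all genes was 0.14, against -0.01 with TMM, which is about the amount by which the genes moved. Nr3c2 passed 2-fold in 6 of 14 alternatives (log2 fold change 0.89 to 1.20 when each library was left out). The receptor balance differed by -1.92 to -1.56 with each library left out and by -1.71 without division by length. No paired analysis was possible because the labels number the libraries 1 to 3 in one group and 4 to 6 in the other. Among the 10 genes depth limits Zbtb16 and Nr3c2 most, and Hsd11b2 was too scarce for a test. Of the genes named from lists, Ccl5 had 8, 6 and 7 counts in T4 to T6, and Lcn2 had 32, 25 and 21. The sizes of their falls thus rest on few counts under β-SITO. In these libraries 3 counts come to 0.153 to 0.189 CPM.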
